A study of Mus musculus with 8 samples.

Results

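The genes described here encode subunits of the 5 complexes of oxidative phosphorylation. They were taken by symbol: probe sets of the array that name exactly 1 gene whose symbol begins with Ndufa, Ndufb, Ndufc, Ndufs or Ndufv and a digit (with Ndufab1), Sdha to Sdhd, Uqcr, Cox4 to Cox8 and a letter, or Atp5. Symbols marked as pseudogenes were dropped, and a gene with several probe sets was read from the brightest over the 8 arrays. This gave 79 of the 22180 genes measured, of which 32 belong to complex I, 4 to complex II, 7 to complex III, 19 to complex IV and 17 to complex V. The rule compares no groups: apart from symbols it uses only the mean over all 8 arrays, to choose among probe sets of a gene. A further 8 genes with such symbols, Cox6c, Ndufb2, Ndufb4, Ndufb4b, Ndufb4c, Ndufs6, Ndufs6b and Uqcr10, are named only on probe sets shared with other genes and were not used here.

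The cells were CD103+ CD11b+ conventional dendritic cells (cDC), sorted by flow cytometry from the mesenteric lymph nodes that drain the gut. The 2 groups were male C57BL6 mice carrying a human Bcl-2 transgene (hBcl-2), driven by the CD11c promoter, and their wild-type littermates. All mice were 8 weeks old and on control chow. Each group has 4 arrays. The RNA of 2 to 3 samples was pooled for each, so the spread given is that between pools; CD11c is also found on other myeloid cells, so the transgene need not be limited to cDC. In pools of sorted cells, a lower level from fewer cells of a type and from less RNA per cell cannot be told apart. All levels are log2 RMA signals, a scale on which 1 unit is a doubling, and a level of 1 probe set is not set against that of another.

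Oxidative phosphorylation takes electrons from NADH at complex I and from succinate at complex II, passes them through complexes III and IV to oxygen, and uses the proton gradient this builds to make ATP at complex V. Most subunits are encoded in the nucleus, a few in mitochondrial DNA, and the nuclear ones must be imported and assembled. Bcl-2 is an anti-apoptotic protein of the outer mitochondrial membrane. Dendritic cells at rest are known to rely on oxidative phosphorylation and to turn towards glycolysis on activation.

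The arrays had medians of 5.05 to 5.15 over all probe sets. Transgenic array 4 correlated least with the others of its group, at a mean of 0.970, against 0.976 to 0.979 for the other transgenic arrays and 0.983 to 0.985 for the wild-type arrays. The cDC markers Flt3, Zbtb46, H2-Ab1, Ccr7 and Itgax were bright in every array, between 8.07 and 13.12, and 0 of the 5 passed limma's adjusted test. At an unadjusted p below 0.05 limma had 3 of the 5 lower in transgenic arrays. These were Zbtb46 (log2 fold -0.42), Flt3 (-0.37) and H2-Ab1 (-0.25), the last 2 without overlap of the groups. Of all genes, 6.60% were lower at that level, and 4.94% had all transgenic arrays lower without overlap. Among genes at or above the level of the median gene these shares were 10.8% and 8.07%. Itgae and Itgam, which encode the sorted CD103 and CD11b, were dim, at means of 5.40 and 5.58 in transgenic arrays and 5.66 and 5.57 in wild-type arrays. The mean level of 5 macrophage and monocyte markers ran from 5.32 to 6.39 in transgenic arrays, against 5.04 to 5.28 in wild-type arrays. It rested on Adgre1 (log2 fold 1.29) and Ly6c2 (1.81, with overlapping groups). Mertk, Fcgr1 and C5ar1 were dim, with log2 folds of 0.07, -0.03 and 0.10. The mean level of 3 plasmacytoid markers ran from 7.40 to 8.48 in transgenic arrays, against 6.87 to 7.33 in wild-type arrays. Of these only Bst2 (log2 fold 0.76) had groups without overlap, while those of Siglech (0.68) and Ly6d (0.35) overlapped. Of these 2 lists, 1 of 5 (Adgre1) and 1 of 3 (Bst2) passed the test and rose, beside 0.839% of all genes. Of 3 T-cell, 3 B-cell, 3 NK-cell and 3 stromal or epithelial markers, 0 of each passed limma's test. None of these 12 had a limma unadjusted p below 0.05. The NK-cell markers differed between pools of the same genotype. Their mean level was 7.62 in transgenic array 2 and 7.21 in wild-type array 4, against 5.10 to 6.24 in the other arrays. The part of these marker differences in those below was not tested.

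Ndufs3 was higher in transgenic cDC and was the only subunit gene to pass the test. The mean of the transgenic arrays was the higher for 26 of 32 complex I genes, with a median log2 fold of 0.21; the medians of complexes II to V lay between -0.01 and 0.13. Of the 79 genes, 1 rose and 0 fell at a limma adjusted p below 0.05 over all 22180 genes, where 1.69% of all genes passed, 0.839% rising and 0.848% falling. At an unadjusted p below 0.05, 12 subunit genes were higher and 1 was lower, beside 13.2% of all genes in either direction, 6.56% higher and 6.60% lower. The log2 fold, transgenic minus wild type, was positive for 57 of 79 with a median of 0.11, against a median of -0.00 over all genes, and it ranged from -0.73 to 0.69. The groups did not overlap for 7 of 79 (8.86%), each with all 4 transgenic arrays above all 4 wild-type arrays, beside 8.94% of all genes in either direction, 4.00% with the transgenic arrays higher and 4.94% with them lower. As 73 of the 79 are at or above the level of the median gene, the count was also set beside such genes: it was then 9.59%, against 14.3% of all such genes. Of all such genes, 6.20% had the transgenic arrays higher. In either direction the share of subunit genes without overlap was thus near or below that of all genes. In the direction of higher transgenic arrays, in which all 7 lie, it was above, and no test of this was made. At an unadjusted p below 0.05, 12 of the 73 brighter subunit genes (16.4%) were higher and 1 was lower. Of all genes at or above the median gene, 10.6% were higher and 10.8% lower.

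**Figure D1:**
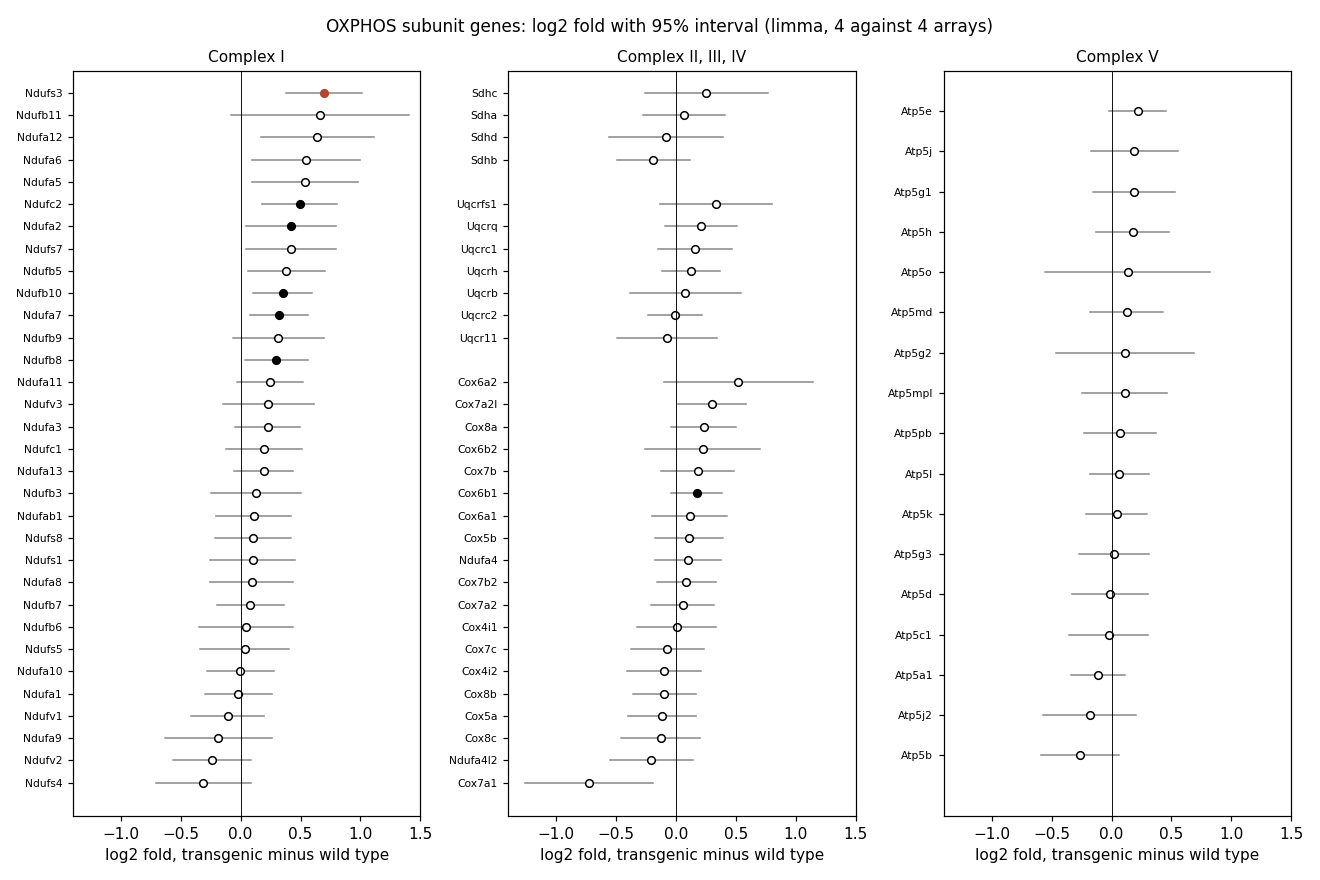
Log2 fold, transgenic minus wild type, of each of 79 subunit genes by complex, with the 95% interval of the limma fit over 4 against 4 arrays. The red point is Ndufs3, which passed the test, and filled black points are genes whose groups did not overlap; every other interval belongs to a gene with an adjusted p above 0.05.

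Complex I has a core of subunits that carry out electron transfer and proton pumping and a larger set of accessory subunits that stabilise it. The log2 folds of its 32 genes ranged from -0.31 to 0.69. The groups did not overlap for 6 of 32 (18.8%), beside 8.94% of all genes; among those no dimmer than the median gene it was 6 of 31 (19.4%), beside 14.3%. At an unadjusted p below 0.05, 11 of 32 were higher and 0 lower, beside 6.56% of all genes higher and 6.60% lower. Among those no dimmer than the median gene, 11 of 31 (35.5%) were higher and 0 lower. Of all such genes, 10.6% were higher and 10.8% lower. Among the 26 accessory genes, 22 were positive with a median of 0.23. Of the 6 core genes 4 were positive with a median of 0.10; the median was 0.03 with 3 positive without transgenic array 4, 0.05 without wild-type array 1 and 0.17 without wild-type array 4. Complex I stayed positive without each array in turn, at medians of 0.16 to 0.24, and was 0.16 with 22 of 32 positive without transgenic array 4 and wild-type array 3 together.

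Ndufs3 encodes a core subunit of the peripheral arm, which takes up electrons from NADH. Its level was 6.51, 7.03, 6.97 and 6.94 in the 4 transgenic arrays, against 6.15, 6.30, 5.94 and 6.29 in the 4 wild-type arrays. Every transgenic array lay above every wild-type array, and transgenic array 1 lay below the other transgenic arrays. The log2 fold was 0.69 (SE 0.14), which is 1.62-fold, with a 95% interval from 0.38 to 1.01 and a limma adjusted p of 0.043. The adjusted p ran from 0.0264 to 0.152 over 21 other settings and was below 0.05 in 7 of them. Those 7 include the same fit read at thresholds of 0.1 and 0.01, where the value of 0.043 recurs by construction. At 0.01 Ndufs3 did not pass. When 1 array was left out, the adjusted p was 0.0264 without transgenic array 1 and between 0.0717 and 0.123 without any other. The log2 fold was positive throughout, from 0.59 to 0.81.

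Ndufs3's promoter is shown because it is the gene that passed the test. The window from RefSeq (GRCm38.p6) spans 250 bases before and 50 after the gene's start, at chr2:90904672-90904971 on the minus strand, with 61.0% GC. Capitals mark the core CCGGAAG of the factor GABPA on either strand; the matches begin at -27 and 2, counting the first transcribed base as 1 and the base before it as -1.
Ndufs3: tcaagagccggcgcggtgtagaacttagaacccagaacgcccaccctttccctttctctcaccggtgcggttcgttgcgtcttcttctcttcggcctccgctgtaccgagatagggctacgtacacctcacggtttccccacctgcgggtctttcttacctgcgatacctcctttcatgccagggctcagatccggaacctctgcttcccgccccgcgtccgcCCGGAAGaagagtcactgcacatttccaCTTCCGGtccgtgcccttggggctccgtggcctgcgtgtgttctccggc

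The other core genes showed no difference past the test. Ndufs7, which holds the last iron-sulfur cluster before ubiquinone, was 7.37, 7.70, 7.21 and 7.71 in transgenic arrays, against 6.90, 7.01, 6.90 and 7.49 in wild-type arrays. Wild-type array 4 lay inside the transgenic range, and the log2 fold was 0.42 (SE 0.17, limma adjusted p 0.313). Ndufs8 and Ndufs1, further iron-sulfur subunits, had log2 folds of 0.10 each. Ndufv1, which binds NADH through its flavin, was 8.18, 7.89, 8.02 and 7.68 in transgenic arrays, against 8.18, 7.98, 7.85 and 8.20 in wild-type arrays. Ndufv2, its iron-sulfur partner, was 9.23, 9.47, 9.18 and 9.76 in transgenic arrays, against 9.66, 9.63, 9.47 and 9.85 in wild-type arrays. Both groups overlapped for each, with log2 folds of -0.11 (95% interval -0.41 to 0.20) and -0.24 (-0.57 to 0.09).

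Several accessory genes of complex I had groups that did not overlap without passing the test. Ndufc2, of the membrane arm, was 10.16, 10.76, 10.31 and 10.49 in transgenic arrays, against 10.11, 9.92, 9.85 and 9.88 in wild-type arrays. The gap between transgenic array 1 and wild-type array 1 was narrow, and the log2 fold was 0.49 (SE 0.14, limma adjusted p 0.125). Ndufb10, also of the membrane arm, was 9.24, 9.17, 9.45 and 9.11 in transgenic arrays, against 8.86, 8.83, 8.86 and 9.01 in wild-type arrays. Its lowest transgenic array was close to wild-type array 4, and its log2 fold was 0.35 (SE 0.11, limma adjusted p 0.169). Ndufa7, of the peripheral arm, was 8.17, 8.05, 8.36 and 8.05 in transgenic arrays, against 7.86, 7.89, 7.72 and 7.90 in wild-type arrays. All transgenic arrays lay above, with a log2 fold of 0.32 (SE 0.11, limma adjusted p 0.215).

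Ndufb8, of the membrane arm, was 7.71, 7.99, 7.77 and 7.88 in transgenic arrays, against 7.69, 7.40, 7.40 and 7.67 in wild-type arrays. Wild-type arrays 1 and 4 came close to the lowest transgenic array, and the log2 fold was 0.30 (SE 0.12, limma adjusted p 0.301). Ndufa2, of the peripheral arm, was 9.48, 9.48, 9.93 and 10.14 in transgenic arrays, against 9.42, 9.42, 9.07 and 9.43 in wild-type arrays. Transgenic arrays 1 and 2 lay just above the wild-type arrays, arrays 3 and 4 well above, and the log2 fold was 0.42 (SE 0.17, limma adjusted p 0.308).

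The 4 largest log2 folds among accessory genes came with overlapping groups. Ndufb11 had the second highest log2 fold of complex I, 0.66, but its wild-type arrays ran from 5.65 to 7.47, wider than its transgenic arrays from 6.70 to 7.64, and the 95% interval reached from -0.08 to 1.41. Ndufa12, of the peripheral arm, was 9.76, 9.92, 10.50 and 10.49 in transgenic arrays, against 9.38, 9.17, 9.65 and 9.92 in wild-type arrays, with a log2 fold of 0.64 (limma adjusted p 0.194). Only transgenic arrays 1 and 2 met the wild-type range. Ndufa6 and Ndufa5 had log2 folds of 0.55 and 0.54, each with a limma adjusted p of 0.253. At the other end, Ndufs4, an accessory subunit needed for a stable complex, was 9.28, 9.74, 9.46 and 8.98 in transgenic arrays, against 9.82, 9.32, 9.90 and 9.67 in wild-type arrays. Its groups overlapped, and its log2 fold was -0.31 (SE 0.18, limma adjusted p 0.523).

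**Figure D2:**
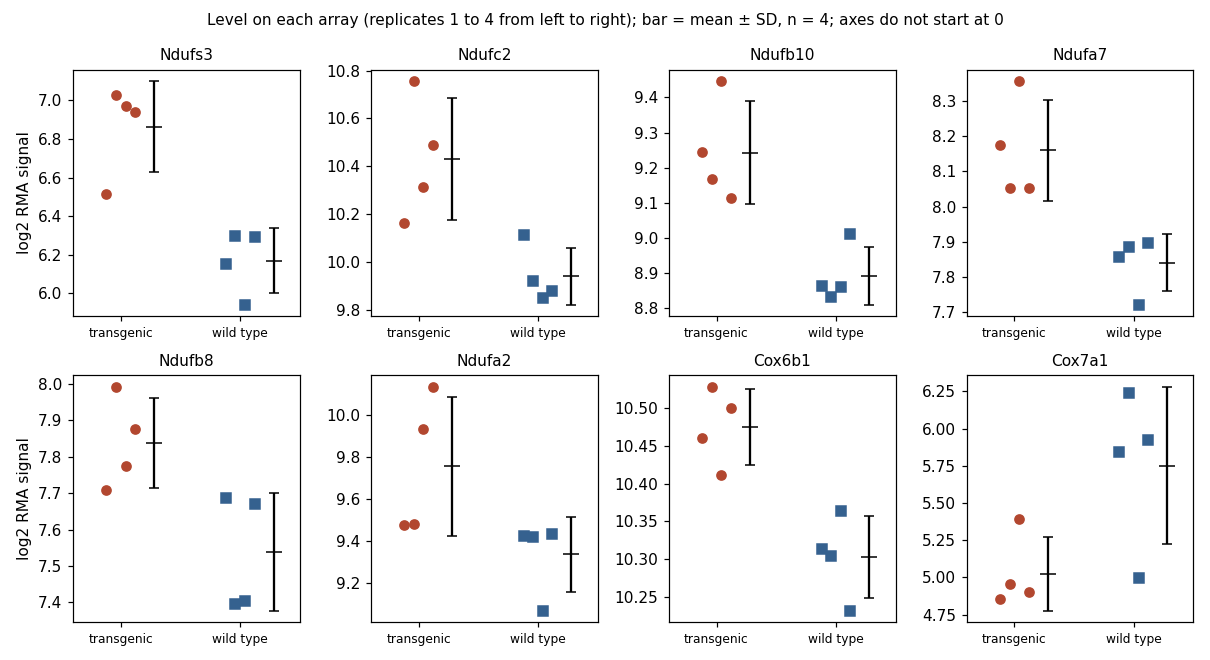
Log2 RMA signal of 8 subunit genes on each array, transgenic (red circles) left of wild type (blue squares), replicates 1 to 4 from left to right, with mean and SD; axes do not start at 0. In the first 7 genes every transgenic array lies above every wild-type array, and in Cox7a1 wild-type array 3, at 5.00, lies inside the transgenic range.

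Complex II, which is also succinate dehydrogenase of the citric acid cycle, had no gene past the test. Its flavoprotein gene Sdha was 9.39, 9.53, 9.43 and 9.00 in transgenic arrays, against 9.59, 9.21, 9.03 and 9.27 in wild-type arrays. The iron-sulfur gene Sdhb was 7.31, 7.85, 7.33 and 7.47 in transgenic arrays, against 7.74, 7.69, 7.52 and 7.77 in wild-type arrays. The groups overlapped in both, with log2 folds of 0.06 and -0.19. The membrane anchor genes Sdhc and Sdhd had log2 folds of 0.25 and -0.09, and Sdhc spread from 6.83 to 7.96 within the wild-type arrays. The median of the 4 was -0.01, and the 95% intervals of the 4 genes lay between -0.56 and 0.77.

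Complex III passes electrons from ubiquinol to cytochrome c. Of its 7 genes taken by symbol, 5 were positive, with a median log2 fold of 0.13, and 0 passed the test. Uqcrfs1, the Rieske iron-sulfur protein, was 7.31, 7.46, 7.52 and 8.35 in transgenic arrays, against 7.44, 7.25, 7.12 and 7.50 in wild-type arrays. Transgenic array 4 stood alone above the rest, and the log2 fold of 0.33 (SE 0.21, limma adjusted p 0.586) was 0.10 without that array. Uqcr11, a small accessory subunit, was 7.95, 8.23, 7.56 and 7.91 in transgenic arrays, against 8.00, 8.31, 8.10 and 7.53 in wild-type arrays, with a log2 fold of -0.07. The core genes Uqcrc1 and Uqcrc2 had log2 folds of 0.16 and -0.01. Without transgenic array 4 and wild-type array 3 the median of complex III was 0.03.

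Complex IV, cytochrome c oxidase, holds 19 genes here, among them Cox7a2l, a factor that joins complexes into supercomplexes, and several tissue isoforms. Of the 19, 12 were positive and 7 negative, with a median log2 fold of 0.09 and 0 past the test. Cox6b1, a subunit on the intermembrane side, was the only gene without overlap, at 10.46, 10.53, 10.41 and 10.50 in transgenic arrays, against 10.31, 10.30, 10.36 and 10.23 in wild-type arrays. All transgenic arrays were higher, but by a log2 fold of 0.17 (SE 0.10, limma adjusted p 0.495). Cox7a2l was 9.70, 9.73, 9.90 and 9.38 in transgenic arrays, against 9.33, 9.49, 9.27 and 9.42 in wild-type arrays. Only transgenic array 4 lay in the wild-type range, and the log2 fold was 0.30 (SE 0.13, limma adjusted p 0.340).

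Cox7a1, the form best known from heart and skeletal muscle, had the lowest log2 fold of all 79 genes. Its level was 4.85, 4.96, 5.39 and 4.90 in transgenic arrays, against 5.84, 6.24, 5.00 and 5.92 in wild-type arrays. Wild-type array 3 lay among the transgenic arrays, and the other wild-type arrays lay above all of them. The log2 fold was -0.73 (SE 0.24, 95% interval -1.26 to -0.19), with a limma adjusted p of 0.193 that ran from 0.0483 to 0.398 over the other settings. Without wild-type array 3 the log2 fold was -0.98 and the limma adjusted p 0.0483. Cox7a2, the form found in most tissues, had a log2 fold of 0.05, from 10.25, 10.17, 10.37 and 9.96 in transgenic arrays, against 10.12, 10.17, 9.99 and 10.25 in wild-type arrays.

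The promoter windows of Cox6b1 and Cox7a1, the gene of complex IV whose groups did not overlap and that with the lowest log2 fold, are shown in the same form. That of Cox6b1 lies at chr7:30626065-30626364 on the minus strand and holds CCGGAAG, in capitals on the opposite strand, at -28. That of Cox7a1 lies at chr7:30183921-30184220 on the plus strand and holds none of the motifs searched.
Cox6b1: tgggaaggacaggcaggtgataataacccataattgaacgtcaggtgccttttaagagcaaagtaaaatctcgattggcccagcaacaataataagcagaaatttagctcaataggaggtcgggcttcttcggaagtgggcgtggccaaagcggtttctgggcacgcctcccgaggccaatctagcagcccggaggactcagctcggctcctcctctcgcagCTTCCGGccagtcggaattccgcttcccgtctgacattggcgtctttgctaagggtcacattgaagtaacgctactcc
Cox7a1: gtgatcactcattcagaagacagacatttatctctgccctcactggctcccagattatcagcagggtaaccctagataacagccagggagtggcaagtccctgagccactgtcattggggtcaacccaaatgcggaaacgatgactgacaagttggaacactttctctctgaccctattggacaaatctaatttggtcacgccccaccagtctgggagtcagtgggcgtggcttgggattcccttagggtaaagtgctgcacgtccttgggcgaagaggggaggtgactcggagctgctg

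The other isoform sets of complex IV did not separate the groups. Cox4i1, the general form, was 11.58, 11.24, 11.58 and 10.95 in transgenic arrays, against 11.42, 11.27, 11.29 and 11.35 in wild-type arrays, a log2 fold of 0.01 whose sign turned when arrays were centred on their medians. Cox4i2, a form known from lung and low oxygen, was dim, at 5.39, 5.17, 4.84 and 5.40 in transgenic arrays, against 5.37, 5.36, 5.19 and 5.29 in wild-type arrays. The 95% intervals, from -0.33 to 0.34 for Cox4i1 and from -0.41 to 0.21 for Cox4i2, both span 0. Cox6a1, the general form, was 11.82, 12.10, 12.13 and 11.59 in transgenic arrays, against 11.79, 11.92, 11.61 and 11.86 in wild-type arrays. Cox6a2, the muscle form, was 6.66, 6.72, 5.80 and 6.50 in transgenic arrays, against 5.16, 5.96, 6.49 and 5.99 in wild-type arrays. Its log2 fold was 0.52, with transgenic array 3 below wild-type arrays 2, 3 and 4 (SE 0.28, limma adjusted p 0.482).

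Of the remaining isoforms, Cox8a, the general form, was 11.38, 11.48, 11.34 and 11.12 in transgenic arrays, against 11.30, 11.07, 11.08 and 10.94 in wild-type arrays, with a log2 fold of 0.23 (SE 0.12). Cox8b and Cox8c, forms of muscle and testis, lay between 3.76 and 4.63 in every array and had log2 folds of -0.10 and -0.13. Cox6b2, a testis form, had a log2 fold of 0.22 with a range from 6.49 to 7.16 in transgenic arrays and from 6.16 to 7.09 in wild-type arrays. Ndufa4, a complex IV subunit despite its name, was 10.73, 10.64, 10.75 and 11.14 in transgenic arrays, against 10.74, 10.67, 10.74 and 10.71 in wild-type arrays. Only transgenic array 4 stood apart there, and without it the log2 fold of 0.10 was -0.01. Ndufa4l2, its hypoxia-induced relative, lay between 3.48 and 4.16 in all arrays, with a log2 fold of -0.21.

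Complex V, the ATP synthase, has a catalytic F1 head and a membrane part with a ring of c subunits. Of its 17 genes 12 were positive with a median log2 fold of 0.07, and 0 passed the test. That sign rested on transgenic array 4: without it 7 of 17 were positive and the median was -0.01. Atp5b, the catalytic beta subunit, was 10.80, 10.60, 10.61 and 10.14 in transgenic arrays, against 10.95, 10.79, 10.70 and 10.77 in wild-type arrays. Transgenic array 4 was lowest and array 1 reached into the wild-type range, and the log2 fold was -0.26 (SE 0.15, limma adjusted p 0.496). Atp5a1, the alpha subunit, lay between 9.94 and 10.07 in transgenic arrays, against 9.99 to 10.20 in wild-type arrays, with a log2 fold of -0.11. Of the 5 F1 genes, Atp5e, the epsilon subunit, alone had a positive value, at 12.22, 12.46, 12.37 and 12.48 in transgenic arrays, against 12.21, 12.09, 12.26 and 12.10 in wild-type arrays (log2 fold 0.22, SE 0.11, limma adjusted p 0.423).

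Atp5g1, Atp5g2 and Atp5g3 encode the same mature c subunit behind different import sequences. Atp5g1 was 5.63, 5.82, 5.61 and 5.83 in transgenic arrays, against 5.61, 5.11, 5.57 and 5.84 in wild-type arrays. Atp5g2 was 11.48, 11.55, 11.39 and 10.42 in transgenic arrays, against 11.04, 11.61, 10.84 and 10.90 in wild-type arrays. Atp5g3 was 8.91, 8.85, 8.75 and 9.24 in transgenic arrays, against 9.04, 8.93, 8.73 and 8.98 in wild-type arrays. In each of the 3 genes the groups overlapped, and transgenic array 4 was the lowest array for Atp5g2 and the highest for Atp5g3. Their log2 folds were 0.19, 0.11 and 0.02, with 95% intervals from -0.15 to 0.53, from -0.46 to 0.68 and from -0.27 to 0.31. The other 9 genes of complex V ranged from -0.18 (Atp5j2) to 0.19 (Atp5j), with 8 of 9 positive and 3 of 9 without transgenic array 4.

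**Figure D3:**
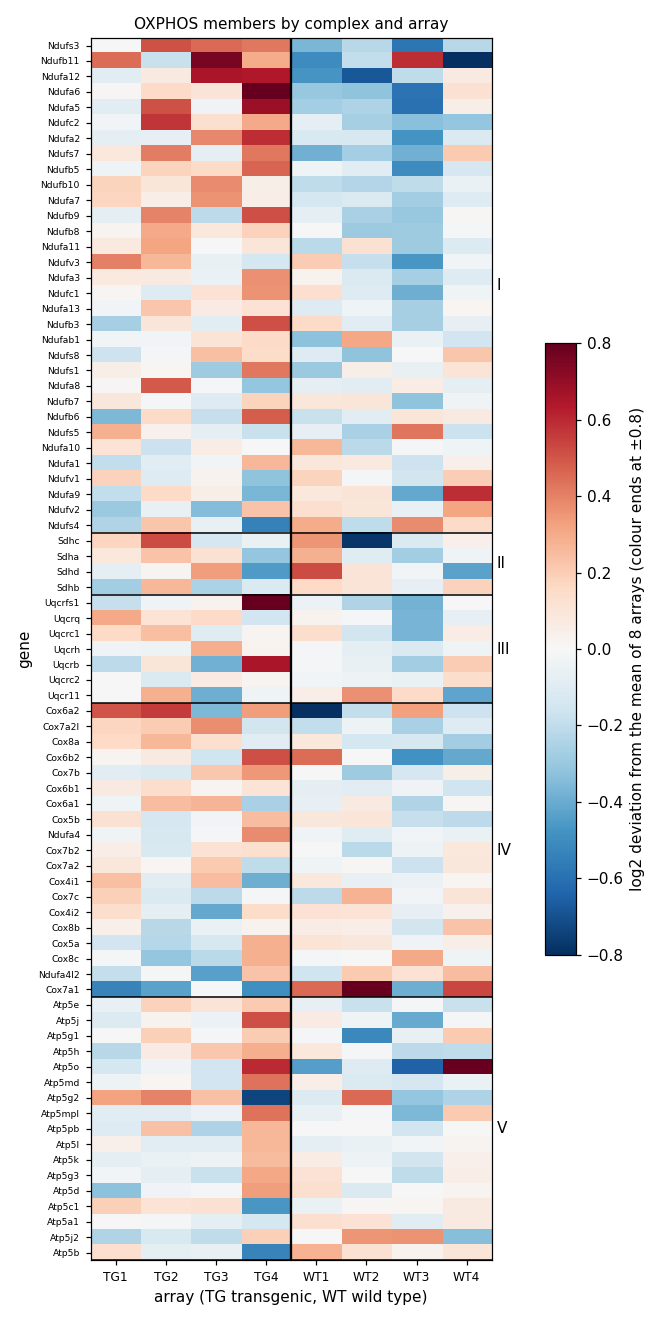
Log2 deviation of each subunit gene (down the page, by complex and by falling log2 fold) from its own mean over 8 arrays, transgenic arrays TG1 to TG4 left of wild-type arrays WT1 to WT4, with the colour ending at ±0.8. TG4 runs high for many genes, up to 0.85 for Uqcrfs1, and low for others, down to -0.74 for Atp5g2. WT3 is low for many genes of complex I. The farthest departure above the mean is that of Atp5o, at 0.92, and the farthest below that of Ndufb11, at -1.22, both in WT4.

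The arrays did not contribute equally. Transgenic array 4 was the highest of the 8 for 32 of 79 subunit genes (40.5%) and the lowest for 12, against 23.2% of all genes highest and 18.5% lowest on that array. Wild-type array 3 was the lowest for 26 of 79 (32.9%), against 11.5% of all genes, and for 15 of the 32 complex I genes. The median deviation from a gene's mean over 8 arrays was 0.00, 0.03, -0.01 and 0.19 in transgenic arrays 1 to 4, against -0.01, -0.06, -0.15 and 0.01 in wild-type arrays. For complex I it was 0.00, 0.10, 0.03 and 0.25 in transgenic arrays, against -0.08, -0.12, -0.27 and -0.03 in wild-type arrays, so that each transgenic median lay above each wild-type median. Without transgenic array 4 and wild-type array 3 the median log2 fold of all 79 was 0.06, with 44 positive. The median SD of a gene was 0.23 in transgenic arrays and 0.17 in wild-type arrays, and 0.15 in transgenic arrays without array 4; the spread was wider in transgenic arrays for 62.0% of the 79 and for 62.1% of all genes.

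**Figure D4:**
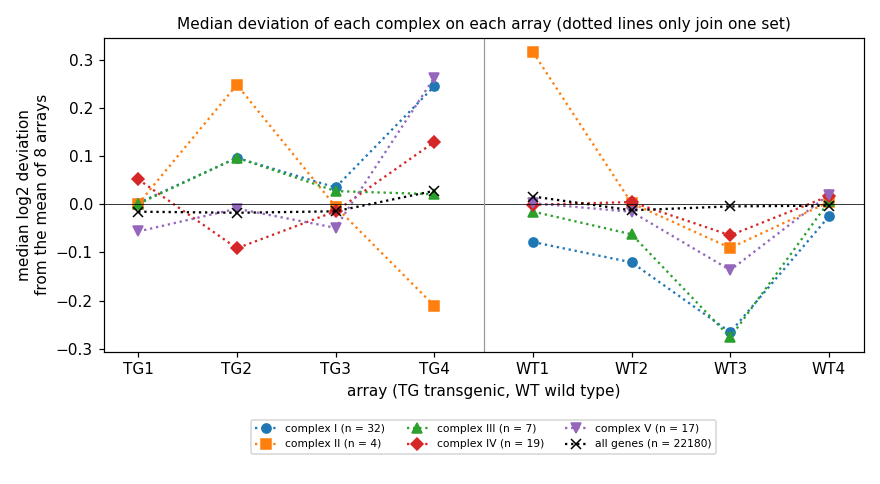
Median log2 deviation of the genes of each complex from their means over 8 arrays, by array, transgenic arrays left of wild-type arrays; crosses are all 22180 genes, and dotted lines only join values of the same set. The complex I values of the transgenic arrays, 0.00 to 0.25, lie above those of the wild-type arrays, -0.27 to -0.03; the complex V value of 0.26 in TG4 stands apart.

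Genes that build or feed the chain were examined from 6 lists of related genes. Etfdh, which passes electrons from fatty acid and amino acid oxidation to ubiquinone, fell. Of the 16 genes in the electron carrier list, Etfdh alone passed the test. It was 8.32, 8.01, 8.53 and 8.64 in transgenic arrays, against 9.26, 9.22, 9.18 and 9.54 in wild-type arrays. The groups lay far apart, with a log2 fold of -0.92 (SE 0.15, limma adjusted p 0.0191, range 0.008 to 0.0583 over the other settings). The adjusted p lay above 0.05 without any 1 of the wild-type arrays, at 0.0502 to 0.0583. The highest statistic of that list belonged to Coq2, an enzyme of ubiquinone synthesis, with a log2 fold of 0.70 and a limma adjusted p of 0.221. The list also holds the other Coq genes and Cyc1 of complex III (log2 fold 0.05), whose symbol the rule above does not take.

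Mrps35, of the small subunit of the mitochondrial ribosome that translates the chain's mitochondrial genes, rose as 1 of 71 ribosomal genes. It was 7.10, 6.91, 7.30 and 7.64 in transgenic arrays, against 6.42, 6.50, 6.18 and 6.13 in wild-type arrays. No arrays overlapped, and the log2 fold was 0.93 (SE 0.16, limma adjusted p 0.0235, range 0.015 to 0.082 over the other settings). The limma adjusted p was below 0.05 in 13 of 21 other settings, among them the same fit read at thresholds of 0.1 and 0.01. At 0.01 Mrps35 did not pass. The adjusted p was 0.0521 with quantile normalization applied again and 0.0582 without transgenic array 3. It was 0.0551 to 0.0792 without any 1 wild-type array and 0.082 with the replicate number in the model. Of the 71 genes 55 were positive, with a median log2 fold of 0.15, which was 0.08 with 44 positive without wild-type array 3. At an unadjusted p below 0.05, 12 of the 71 (16.9%) were higher and 1 was lower, beside 6.56% and 6.60% of all genes. Of genes at or above the median gene, 10.6% were higher and 10.8% lower. The lowest statistic was that of Mrpl4, with a log2 fold of -0.37 (limma adjusted p 0.277).

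Of 47 measured assembly factors, 35 were positive with a median log2 fold of 0.16, and 0 passed limma's adjusted test. At an unadjusted p below 0.05, 5 (10.6%) were higher and 1 (2.13%) was lower. At that level 6.56% of all genes were higher and 6.60% lower. Of genes at or above the median gene, 10.6% were higher and 10.8% lower. Cox10, needed to make the heme of complex IV, had the highest statistic, with a log2 fold of 0.54 (limma adjusted p 0.0729). Sdhaf2, which helps attach the flavin of Sdha, had the lowest, with a log2 fold of -0.58 (limma adjusted p 0.14). Of 14 regulators of mitochondrial biogenesis, 0 passed limma's adjusted test and 3 were higher and 1 lower unadjusted. Tfb2m, a factor for transcription of mitochondrial DNA, was highest at 0.62 (limma adjusted p 0.0627), and Gabpb1, the partner of GABPA, was lowest at -0.29 (limma adjusted p 0.296). Of 17 measured citric acid cycle genes 10 were positive with a median of 0.03, from Cs, citrate synthase, at -0.24 to Dlat, of pyruvate dehydrogenase, at 0.46; 0 passed limma's adjusted test and 2 were higher unadjusted. Of 11 uncoupling proteins and carriers 3 were positive with a median of -0.03 and 0 passed limma's test, adjusted or not; the extreme statistics were those of Slc25a4, an ADP/ATP carrier, at 0.40 and Atpif1, the ATP synthase inhibitor, at -0.18.

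**Figure D5:**
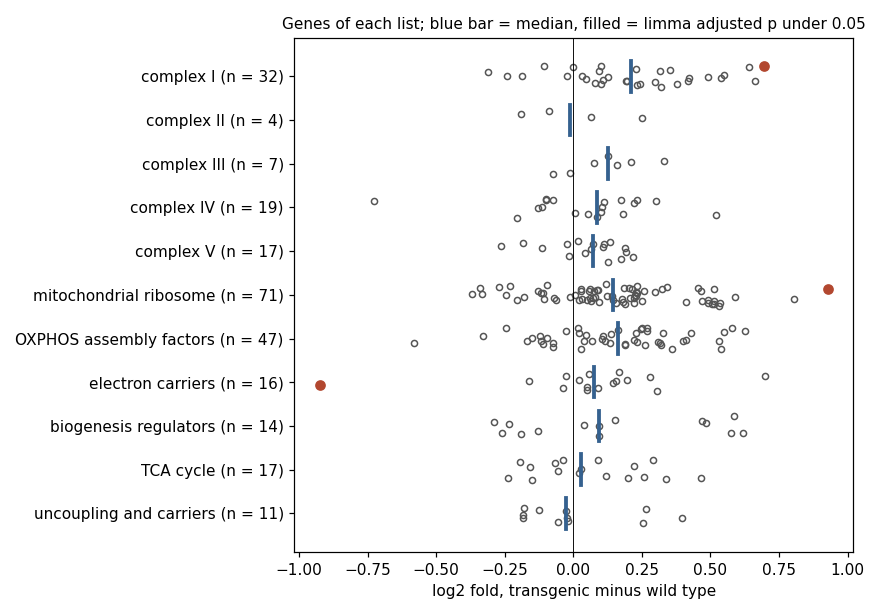
Log2 fold, transgenic minus wild type, of each gene of the 5 complexes and of 6 related lists; blue bars are medians, and filled red points passed limma's test. The 3 filled points are Ndufs3 (0.69), Mrps35 (0.93) and Etfdh (-0.92); the medians run from -0.03 for uncoupling and carriers to 0.21 for complex I.

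The promoters of subunit genes were also searched for motifs of factors known to drive mitochondrial genes. RefSeq windows were found for 65 of the 79, 70 windows in all. The core of GABPA, CCGGAAG, was in 24.29% of the windows, that of NRF1, GCATGCGC, in 14.29% and that of YY1, AAGATGGC, in 12.86%, on either strand. Over 32851 windows of all genes the same shares were 8.86%, 2.71% and 2.75%, and over windows of genes at or above the median gene they were 17.18%, 4.98% and 4.31%. Any of the 3 motifs was in 42.86% of subunit windows, 13.3% of all windows and 24.2% of those of the brighter genes. The median GC content was 57.5% in subunit windows and 52.7% in all windows, and its part in these shares was not tested. The 30 genes with such a motif had a median log2 fold of 0.12 with 24 positive, and the 35 without one had a median of 0.10 with 24 positive.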

How the data were processed

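Total RNA (2.5 ng per array) from sorted cDC was reverse transcribed and amplified, per the labels' protocols. The deposited values are log2 signals per probe set, which the authors made with Partek's RMA (per the submitters' processing notes). Versions, probe filters and the build of the array were not stated there or in the labels. RMA brings the arrays' distributions close together, so a shift shared by all genes may not be seen, and very bright probe sets can be compressed. The deposited distributions were not fully alike. The SD over probe sets was 2.00 in transgenic array 4, against 2.07 to 2.11 in the other arrays. With quantile normalization applied again, the median log2 fold of the subunit genes was 0.16, against 0.11.

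Of 34390 probe sets, 23521 name 1 gene, 1814 several and 9055 none. Where 1082 genes had several, the set with the highest mean over 8 arrays was used, giving 22180 genes. Transgenic minus wild type was fitted by limma 3.58.1 (lmFit, eBayes; R 4.3.3). P-values were adjusted by Benjamini and Hochberg's method across these genes, and 0.05 was the threshold. The script was tested on simulated data. No fit dropped or imputed an array, apart from those that leave out named ones. Precision is limited by 4 arrays a group. The labels do not say whether pools share animals; p-values measure the spread between these pools. The members and the gene lists were chosen with earlier results of these data known. Genes given array by array are those past the threshold, those with the highest and lowest statistic of each complex, tissue isoforms and core subunits; other genes of the lists are named if past the threshold or at either end of their list. Ndufb11, Ndufa12, Ndufa5 and Ndufa6 and the genes without overlap were chosen after their values were seen. Alternatives covered the variance model, array scaling, dim genes, several probe sets, array weights, replicate blocks, thresholds and arrays left out; 1 of them, without transgenic array 4 and wild-type array 3 together, was chosen after seeing the data. Promoter windows come from RefSeq (GRCm38.p6).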

Additional observations from a re-analysis of the deposited data

Results flagged for a closer look

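Of 158 groups of 4 arrays (79 genes in each genotype), 11 held an array whose gap to the nearest other array, over the group's range, was above Dixon's 95% critical value; chance gives about 1 in 20. Of the 11, 7 were transgenic groups, 6 of them through transgenic array 4, and 4 were wild-type groups, all through wild-type array 3. Transgenic array 4 was far below the others for Atp5c1, at 6.19 against 6.76 to 6.85, and for Atp5g2, at 10.42 against 11.39 to 11.55. It was far above them for Atp5k, at 11.51 against 11.18 to 11.22, for Atp5mpl, at 10.5 against 9.97 to 10.01, for Atp5o, at 6.05 against 5.31 to 5.43, and for Ndufa6, at 10.99 against 10.17 to 10.31. For Ndufs3, transgenic array 1 lay below the other transgenic arrays, at 6.51 against 6.94 to 7.03. Wild-type array 3 was below the other wild-type arrays for Ndufa2, at 9.07 against 9.42 to 9.43, and for Atp5pb, at 8.9 against 9.05, and above them for Cox8c, at 4.63 against 4.29 to 4.33, and for Ndufa8, at 9.19 against 9.04 to 9.06. The median deviation of transgenic array 4 also stood apart for complex V, at 0.26 against -0.06 to -0.01, for the complex I core, at 0.32 against -0.03 to 0.02, and for the F1 genes of complex V, at -0.14 against -0.01 to 0.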

How the results depend on the processing

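The count of subunit genes past the test, 1 with the settings used, was 0 with a mean-variance trend in eBayes, with trend and robust eBayes, with quantile normalization applied again, with arrays centred on their medians, with array weights, with the replicate block, at an adjusted p of 0.01, and without transgenic array 4 and wild-type array 3 together. It ran from 0 to 1 when each array was left out; without wild-type array 3 the 1 gene was Cox7a1, which fell by 0.98. The median log2 fold of all subunits stayed positive in every setting tried. The count of genes whose groups did not overlap, 7, ran from 8 to 12 with 1 array left out, where 11.6% to 14.7% of all genes did not overlap, and was 22 without both arrays, where 27.8% of subunit genes and 19.5% of all genes did not; fewer arrays make separation easier. Complex IV's median was 0.17 with quantile normalization again. Without both arrays it was 0.00, that of complex III 0.03 and that of complex V -0.05. The labels state no pairing by replicate number. Deviations from the group mean correlated at -0.03, -0.03, 0.08 and -0.02 between same-numbered arrays, which cannot show whether samples were paired. With the replicate block Ndufs3 had a limma adjusted p of 0.0812, and 187 of all genes passed, against 374 without it. At the threshold of 0.05, 106 (without wild-type array 1) to 534 (array weights) of all genes passed over the other settings. The fit with the settings used gave 57 at a threshold of 0.01 and 747 at 0.1. Signs turned for 8 named genes, 7 of them with log2 folds of -0.10 to 0.11 and Cox6b2 at 0.22. With centred arrays Cox4i1 was -0.016 and Atp5g3 -0.0028, and with array weights Atp5g3 was -0.037. With 1 array left out Cox4i1 ran from -0.077 to 0.14, Atp5g3 from -0.082 to 0.080, Atp5g2 from -0.0025 to 0.37, Uqcr11 from -0.23 to 0.045, Cox4i2 from -0.16 to 0.022, Cox7a2 from -0.0051 to 0.13 and Ndufa4 from -0.0086 to 0.16. Cox6b2 ran from 0.088 to 0.41 with 1 array left out. Without both arrays Cox6b2 was -0.036, Atp5g3 -0.15 and Cox4i2 -0.20. The causes of these turns were not tested. Differences of genes below the median level are limited by dim signal.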

Other observations

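For 9 subunit genes the array holds a probe set beside the one used. For 5 of them, Ndufa12, Atp5e, Ndufa8, Cox5b and Atp5g2, the log2 fold had the same sign on both, among them Ndufa12 at 0.64 and 0.41 and Atp5e at 0.22 and 0.24. For the other 4, Atp5h, Ndufa11, Cox7b and Atp5d, the sign differed, as in Atp5h at 0.18 on the set used and -0.39 on the dimmer set. Named pseudogenes of 10 subunit genes are in the gene table, 4 of them of Atp5k, and probes of those genes may also read such copies. Ly6c2, a monocyte marker, spread from 5.81 to 10.38 in transgenic arrays, against 5.46 to 6.83 in wild-type arrays.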
